A study of Mus musculus with 4 samples.

Results

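In the mouse cancer line MC38/gp100, 8 protein-coding genes were followed whose exons lie on the strand opposite a cytosolic ribosomal protein gene. The pairs, each written with the ribosomal gene second, were Fam69a and Rpl5, Tbc1d8 and Rpl31, Tlcd1 and Rpl23a, Cand2 and Rpl32, Nkiras1 and Rpl15, Sphk2 and Rpl18, Clhc1 and Rps27a, and Vps52 and Rps18. These 8 genes were taken by name from the 12578 genes that have values in the deposited table. They were chosen by annotation and by measured values, namely their levels in the DMSO and inhibitor columns read beside those of the ribosomal neighbour. Those levels and differences are therefore given as a description, and no test result for these 8 genes is read as support.

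Poly(A) RNA was sequenced from 2 libraries of cells given DMSO, the solvent control, and from 2 libraries of cells given 1 µM GSK3368712, which blocks type I protein arginine methyltransferases, each for 5 days. All 4 libraries came from the same line: MC38 is a line of a mouse colon tumour, and gp100 is a melanocyte antigen. The labels do not tie the libraries of a group to different cultures, and their spread may be technical only. The libraries held 1081540 to 1173587 reads over genes with values, and a gene at the median held 22.6 normalised reads, so intervals are wide for low genes.

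Ribosomal protein genes are among the most highly transcribed genes of a growing cell, and their products build the large and the small subunit of the ribosome. Genes on opposite strands can share exon sequence where their ends run into each other (tail to tail) or where their starts do (head to head). The RNA of each gene is then read from its own strand, and a stranded library keeps that strand. Type I arginine methyltransferases place asymmetric dimethyl marks on histones and on many RNA-binding proteins.

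Strand bears on every value below. The library kit keeps the strand per the labels, but the strand setting of the read counting is not stated in the sources used here. Reads from a gene and from its partner on the other strand therefore cannot be told apart at the bases they share. How the counting treats reads at gene ends beyond those bases was not tested.

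Exons were placed on mm10 with GENCODE release M21, which the authors' annotation need not match. Fam69a is on the minus strand at chr5:107908053-107987085, and its last exon runs tail to tail into Rpl5 (plus strand, chr5:107900502-107909005) over 953 bases, 33.0% of its exon bases. Tbc1d8 is on the minus strand at chr1:39371492-39478755 and shares 420 bases with Rpl31 (plus strand, chr1:39367842-39371911), also tail to tail. Tlcd1 (plus strand, chr11:78176711-78181909) shares 506 bases tail to tail with Rpl23a (minus strand, chr11:78180932-78183584). Cand2 (plus strand, chr6:115774538-115805557) shares only 53 bases, at the very ends of both genes, with Rpl32 (minus strand, chr6:115805505-115808747).

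The other 4 pairs lie head to head. Nkiras1 (plus strand, chr14:18271136-18284003) shares 105 bases with Rpl15 (minus strand, chr14:18267823-18271391). Sphk2 (minus strand, chr7:45709467-45718002) shares 373 bases with Rpl18 (plus strand, chr7:45715457-45720836). Clhc1 (plus strand, chr11:29547950-29578367) shares 160 bases with Rps27a (minus strand, chr11:29545846-29548109), and Vps52 (plus strand, chr17:33955812-33967035) shares 156 bases with Rps18 (minus strand, chr17:33951999-33956001).

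None of the shared bases is in the coding sequence of any of the 8 genes. On the ribosomal side the shared bases are in coding sequence in Rpl23a alone, where 259 of the 310 bases that its main transcript shares are coding. The pairs differ in how much of the ribosomal gene's transcript catalogue takes part, counting transcripts that share at least 10 bases. All 3 Rpl23a transcripts and both Rpl32 transcripts do. In contrast, 1 of 6 does for Rpl5, 1 of 6 for Rpl31, 1 of 6 for Rpl15, 1 of 11 for Rpl18, 1 of 11 for Rps18 and 1 of 5 for Rps27a. For Rpl5 and Rpl31 it is the transcript with the farthest downstream end: Rpl5-201 runs 950 bases past the next end, and Rpl31-201 runs 545 bases past it.

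**Figure D1:**
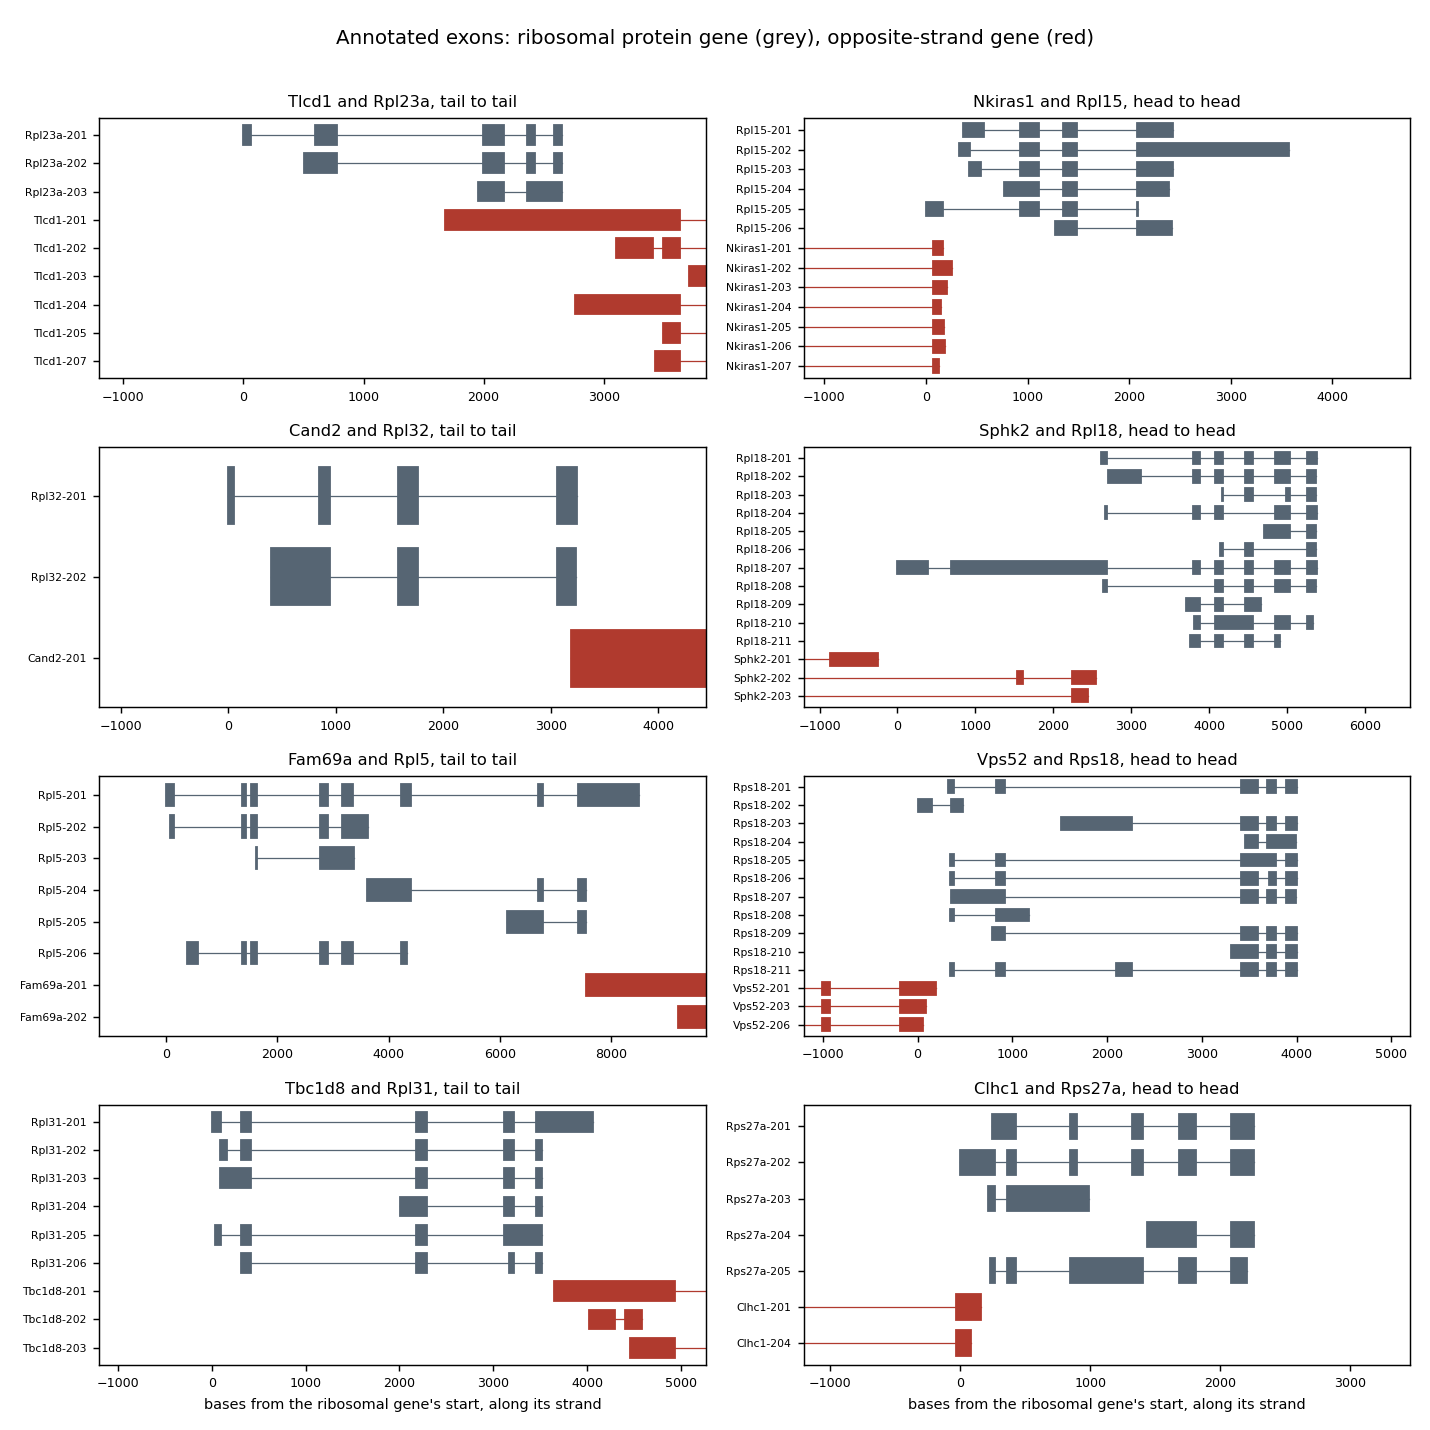
Annotated transcripts of the 8 pairs, each panel drawn to its own scale, with exons as boxes (ribosomal gene grey, opposite gene red) and introns as lines. The horizontal axis is the distance in bases from the ribosomal gene's start along its strand, and transcripts of the opposite gene are drawn where they come into that window. In the Fam69a and Tbc1d8 panels a single ribosomal transcript, Rpl5-201 or Rpl31-201, runs well into the opposite gene's last exon.

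The ends of ribosomal transcripts in the tail-to-tail pairs are shown. For Rpl5 and Rpl31 the end used bears on whether at least 10 bases are shared. Every annotated Rpl23a and Rpl32 transcript shares that many with exons of the opposite gene. Each line is the last 30 bases of a GENCODE M21 transcript on its own strand, 5′ to 3′, and capitals mark AATAAA or ATTAAA, the usual letters of a poly(A) signal. The first 4 lines set the nearer end of Rpl5 and of Rpl31 beside the far end that reaches the opposite gene.
Rpl5-205 (chr5:107908026-107908055, plus): agacAATAAAcatattgatcaagcagcttt
Rpl5-201 (chr5:107908976-107909005, plus): actttttAATAAAtgagtcatttgaattta
Rpl31-205 (chr1:39371337-39371366, plus): gctcgtgtcaAATAAAgttgcagaactgcc
Rpl31-201 (chr1:39371882-39371911, plus): ttATTAAAaaccttgaggacaaacATTAAA
Rpl23a-201 (chr11:78180935-78180964, minus): attctaaatatatacttttttcaccataaa
Rpl32-201 (chr6:115805505-115805534, minus): ttaAATAAAatcacaaaacctgccgtcgta

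The nearer Rpl5 end shares 3 of its 30 bases with Fam69a exons and the far end shares all 30. The nearer Rpl31 end shares 0 with Tbc1d8 exons, which begin 126 bases further on, and the far end shares all 30. On the strand shown, AATAAA was in 35.5% of the last 30 bases of 58797 coding transcripts, and ATTAAA without AATAAA in another 8.59%. The other strand of these windows was not searched, and the 2 motifs do not overlap in the lines above. A match to these letters is a description and does not show that an end is used in these cells.

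Libraries of a group did not agree equally well. Base mean is the mean of normalised reads over the 4 libraries. Among genes at a base mean of 1000 or more, DMSO B was above DMSO A at 115 of 117 genes with an exon on the other strand, with a median ratio of 1.21. Of the 37 such genes with no opposite exon, 17 were higher in DMSO B, with a median ratio of 0.991. Between the inhibitor libraries the median ratio of B over A was 1.02 in both sets. The DMSO libraries thus differed from each other at genes with opposite exons, and a ratio does not say which of them stands apart. Differences of the 5 well-read members are given with all libraries and without DMSO A.

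At a base mean of 100 or more, 811 of 1083 genes with an opposite exon (74.9%, median ratio 1.13) and 408 of 957 without one (42.6%) were higher in DMSO B. The 5 members at that level were all higher in DMSO B. The ratio of DMSO B over DMSO A was 1.25 for Fam69a, 1.34 for Tbc1d8, 1.23 for Tlcd1, 1.25 for Cand2 and 1.29 for Nkiras1. Between the inhibitor libraries it was 0.988 for Fam69a, 1.08 for Tbc1d8, 1.05 for Tlcd1 and 1.02 for Nkiras1. Cand2 differed by as much there, at 1.25, as between the DMSO libraries. Over 77 ribosomal protein genes at a base mean of 100 or more, 43 were higher in DMSO B and 71 were higher in inhibitor B, with median ratios of 1.03 and 1.12. The part of this library difference in the results below was not tested beyond leaving out single libraries.

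**Figure D2:**
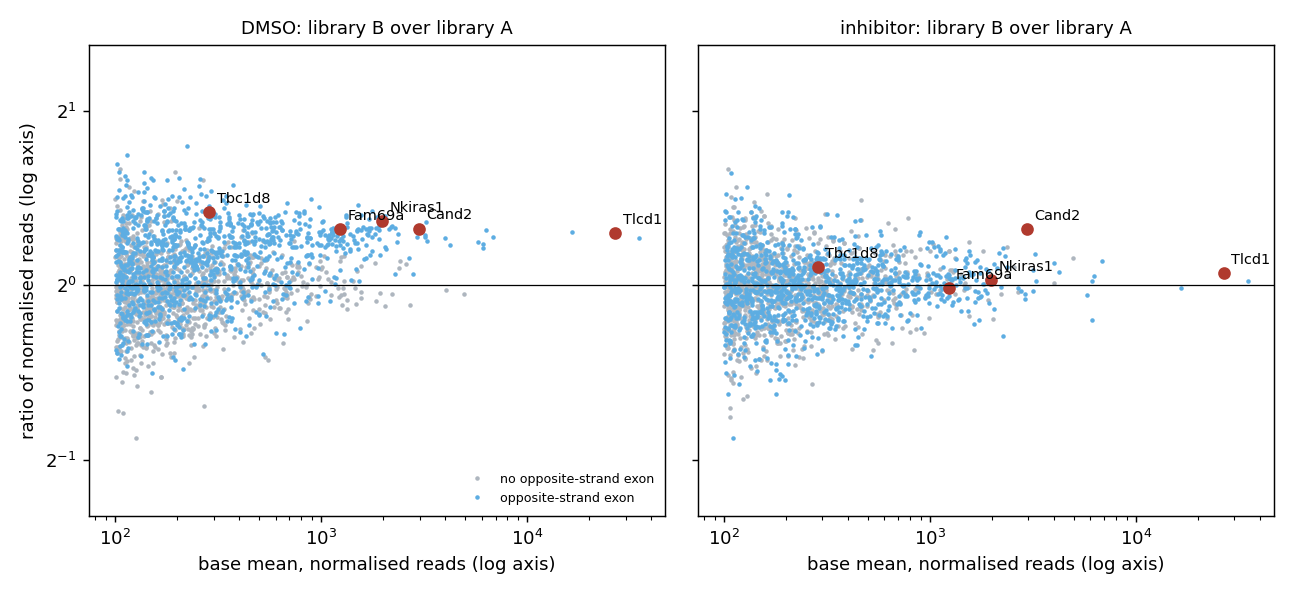
Ratio of normalised reads in library B over library A, in DMSO (left) and in the inhibitor group (right), against base mean, all on log axes. Each dot is 1 gene at a base mean of 100 or more, blue with an opposite-strand exon and grey without, and red points are members. In DMSO the 5 red points lie between 1.23 and 1.34 among the highly read blue genes, and in the inhibitor panel Cand2 alone of the 5 stays at 1.25.

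Fam69a, which encodes a kinase-like endoplasmic reticulum protein, was the member with the largest difference. It had 482 and 603 normalised reads in DMSO A and B and 1933 and 1909.9 in inhibitor A and B. The DMSO mean was 543 ± 86.0 and the inhibitor mean 1921.5 ± 16.5 (SD, n = 2 libraries each), a 3.54-fold higher level, or 1.83 ± 0.13 on the log2 scale of normalised reads plus 1 (SE from the limma fit over all genes). The 2 groups did not overlap, and without DMSO A the log2 difference was 1.67. Among the 2041 genes at a base mean of 100 or more, this difference ranked 1 from the top.

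Its neighbour Rpl5, a large-subunit protein that travels with the 5S RNA, had 709.6 and 672 normalised reads in DMSO and 581 and 619 in the inhibitor group. The difference was -0.20 ± 0.11 on the log2 scale, opposite in sign to that of Fam69a, and the groups did not overlap. The ratio of Fam69a reads to Rpl5 reads, which no scaling between libraries can change, was 0.679 and 0.898 in DMSO and 3.33 and 3.09 in the inhibitor group. The inhibitor mean of this ratio was 4.07-fold the DMSO mean. Both inhibitor libraries lay above both DMSO libraries.

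Tbc1d8, a protein with the TBC domain found in Rab GTPase-activating proteins, had 151 and 201.5 normalised reads in DMSO and 381 and 409.6 in the inhibitor group. The means were 176 ± 35.9 and 395 ± 20.5 (SD, n = 2 each), a 2.24-fold higher level, or 1.18 ± 0.15 on the log2 scale. The groups did not overlap, and without DMSO A the difference was 0.97. It ranked 3 among the same 2041 genes.

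Rpl31, also of the large subunit, had 456 and 489.6 normalised reads in DMSO and 378 and 439.7 in the inhibitor group, a log2 difference of -0.21 ± 0.12. The ratio of Tbc1d8 to Rpl31 reads was 0.331 and 0.412 in DMSO against 1.01 and 0.932 in the inhibitor group, 2.61-fold higher. Both inhibitor libraries lay above both DMSO libraries for this ratio, as for that of Fam69a to Rpl5. The ratios of Nkiras1 to Rpl15 and of Sphk2 to Rpl18 also did not overlap, and those of the Tlcd1, Cand2, Clhc1 and Vps52 pairs did. How often such ratios separate over all genes was not computed, and nothing is read from their separation. For single genes, groups did not overlap at 41.2% of the 8562 genes tested, in either direction.

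The other 2 tail-to-tail genes had no such difference. Tlcd1, a membrane protein with a TLC domain, had 23821 and 29316.6 normalised reads in DMSO and 26217 and 27549 in the inhibitor group, the second highest base mean of all genes. Means were 26569 ± 3886 and 26883 ± 942 (SD, n = 2 each), and the log2 difference was 0.02 ± 0.22. The inhibitor values lay inside the DMSO range, and without DMSO A the difference was -0.13.

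Rpl23a, a large-subunit protein at the exit of the peptide tunnel, had 1184 and 1259 normalised reads in DMSO and 1230.5 and 1237 in the inhibitor group. The ratio of Tlcd1 to Rpl23a reads was 20.1 and 23.3 in DMSO and 21.3 and 22.3 in the inhibitor group. Both groups overlapped for this ratio too.

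Cand2, a cullin-associated protein known mainly from muscle, had 2594 and 3250.4 normalised reads in DMSO and 2669 and 3333 in the inhibitor group. The log2 difference was 0.04 ± 0.17, and without DMSO A it was -0.12. Each group held 1 lower and 1 higher library, so the spread within groups was larger than the difference between them. Rpl32, another large-subunit protein, had 1163 and 1095 in DMSO and 979 and 1145 in the inhibitor group, a log2 difference of -0.09 ± 0.12.

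Among the head-to-head genes only Nkiras1 was abundant. Nkiras1, a Ras-like protein that restrains NF-κB signalling, had 1689 and 2179.5 normalised reads in DMSO and 2001 and 2046 in the inhibitor group. The log2 difference was 0.08 ± 0.15, the groups overlapped, and without DMSO A the difference was -0.11. Rpl15, a large-subunit protein, had 115 and 123 in DMSO and 94.7 and 107 in the inhibitor group, a difference of -0.24 ± 0.14 with no overlap.

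The ratio of Nkiras1 to Rpl15 reads was 14.7 and 17.7 in DMSO and 21.1 and 19.1 in the inhibitor group. Both inhibitor libraries lay above both DMSO libraries here too, and the inhibitor mean was 1.24-fold the DMSO mean. Rpl15 held only 92 to 128 reads per library, and the counting error of this ratio was not computed. Nkiras1 has a further partner: its exons also share 718 bases with Ube2e1, whose base mean was 83.5. Reads of that gene cannot be told apart from those of Nkiras1 at the shared bases.

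Sphk2, a kinase that makes sphingosine-1-phosphate, had 91.5 and 94.99 normalised reads in DMSO and 92.6 and 103 in the inhibitor group. The difference was 0.07 ± 0.15 on the log2 scale. Sphk2 also shares 539 exon bases with Dbp, whose base mean was 9.65. Its neighbour Rpl18 had 597.5 and 622 in DMSO and 584 and 599 in the inhibitor group. The ratio of Sphk2 to Rpl18 reads was 0.153 in both DMSO libraries and 0.158 and 0.172 in the inhibitor group, without overlap. The inhibitor mean of this ratio was 1.08-fold the DMSO mean. The 95% exact Poisson interval of Sphk2 was 72.4 to 111 reads in inhibitor A and 84.1 to 125 in inhibitor B. Counting error is thus wide beside this difference.

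The last pair of genes was barely read. Vps52, a subunit of the tethering complexes that return vesicles to the Golgi and to endosomes, had 19 and 15 reads in DMSO and 21 and 15 in the inhibitor group. Clhc1 had 10 and 1 reads in DMSO and 4 and 9 in the inhibitor group, and at a base mean of 5.79 it was below the minimum of 10 and was not among the genes tested. The 95% exact Poisson interval for the single DMSO B read ran from 0.0253 to 5.57 reads and covers counting error only. Their neighbours were well read: Rps18, a small-subunit protein, had 899 to 1067 normalised reads, and Rps27a, made as a fusion with ubiquitin, had 291 to 323.5.

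**Figure D3:**
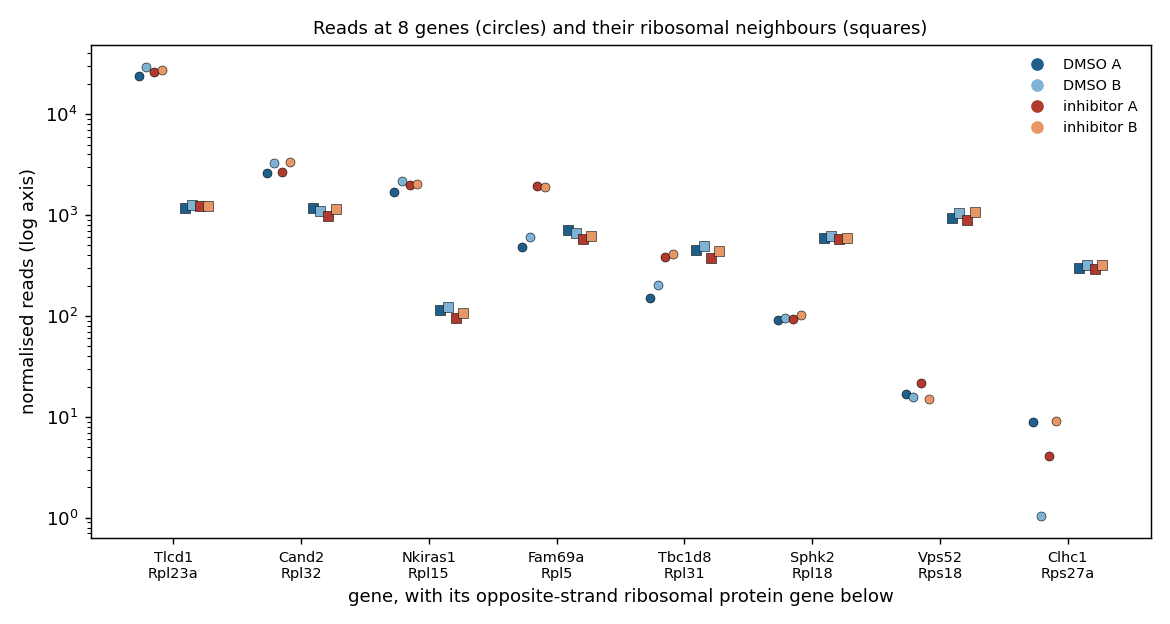
Normalised reads of each member and of its ribosomal neighbour in the 4 libraries, on a log axis. Circles are members, squares are neighbours, and each point is a single library. Fam69a and Tbc1d8 lie higher in both inhibitor libraries than in both DMSO libraries, and the members of the other 6 pairs overlap between the groups.

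Levels per kilobase divide by every base in an exon of any annotated transcript of a gene, and other lengths were not tried. Per kilobase of exon, the level of the 8 genes spanned from 5336 normalised reads for Tlcd1 to 2.61 for Clhc1. Between them came Cand2 at 541, Fam69a at 426, Nkiras1 at 360, Tbc1d8 at 54.5, Sphk2 at 23.0 and Vps52 at 4.37. The order was not firm in the middle: Cand2 spanned 474 to 609 over the libraries, Nkiras1 308 to 397 and Fam69a 167 to 668. Fam69a was below Nkiras1 in both DMSO libraries and above Cand2 in both inhibitor libraries. Vps52 and Clhc1 overlapped, at 3.79 to 5.45 and 0.471 to 4.07.

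On that same scale Tlcd1 stood above its ribosomal neighbour in every library, with a mean of 5336 against 1449 for Rpl23a, as did Nkiras1, at 360 against 44.5 for Rpl15. Fam69a was at 167 and 209 in DMSO against 181 and 171 for Rpl5, with the order differing between the libraries. In the inhibitor group Fam69a was at 668 and 660.4 against 148 and 158. The length used was 3920 bases for Rpl5, whose main transcript holds 2045, and 2892 for Fam69a, whose main transcript holds 2721. The order of this pair in DMSO therefore depends on the length used. Cand2 reached 541 against 1138 for Rpl32. Tbc1d8, Sphk2, Vps52 and Clhc1 were lower than their neighbours, at 265, 149, 402 and 157 for Rpl31, Rpl18, Rps18 and Rps27a. The 8 genes together held 3.01% of all normalised reads, and the 80 listed cytosolic ribosomal protein genes together held 4.53%. Most of the former was Tlcd1: the 8 genes held 28854 to 35663 normalised reads per library, and 5033 to 7826 without it.

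**Figure D4:**
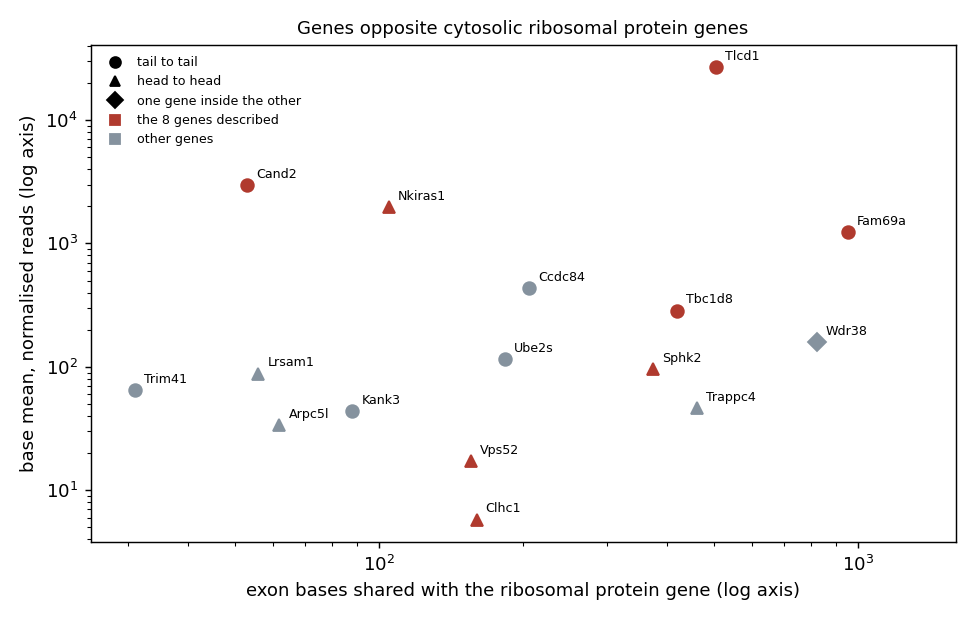
Base mean against the number of exon bases shared with the ribosomal gene, both on log axes, for the 8 members and the other 8 genes opposite a ribosomal protein gene. Symbols give the orientation and red marks the members. Tlcd1 with 506 shared bases and Cand2 with 53 are the 2 highest points.

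Base mean did not track the length of the overlap closely. Spearman's rho between shared bases and base mean was 0.31 over the 16 genes opposite a ribosomal protein gene and 0.05 over the 8, as a description of genes that share the same libraries. The 8 tail-to-tail genes had a median base mean of 359 and the 7 head-to-head genes one of 46.5, and the ranges overlapped.

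Limma called 2 of the 7 members tested higher and 0 lower at an adjusted p below 0.05. Over all 8562 genes tested, 1.3% were called higher and 0.841% lower. The balance over all genes turned without DMSO A, with 68 called higher and 76 lower, and 178 were higher and 55 lower without DMSO B. The members were chosen with their inhibitor and DMSO values known. Nothing is therefore read from their calls, here or by the authors, or from their ranks. Groups did not overlap, in the higher direction, for 2 of the 7, against 20.7% of all genes in that direction and 41.2% in either. The authors' deposited table gives an adjusted p for 6 members and calls 2 of them, against 0.574% of its genes. Of the 8 ribosomal neighbours, 3 had groups that did not overlap, all lower (Rpl5, Rpl31 and Rpl15), against 20.5% of all genes. The median difference was 0.08 over the 7 members, -0.07 over the 8 neighbours and 0.01 over all genes, on the log2 scale.

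**Figure D5:**
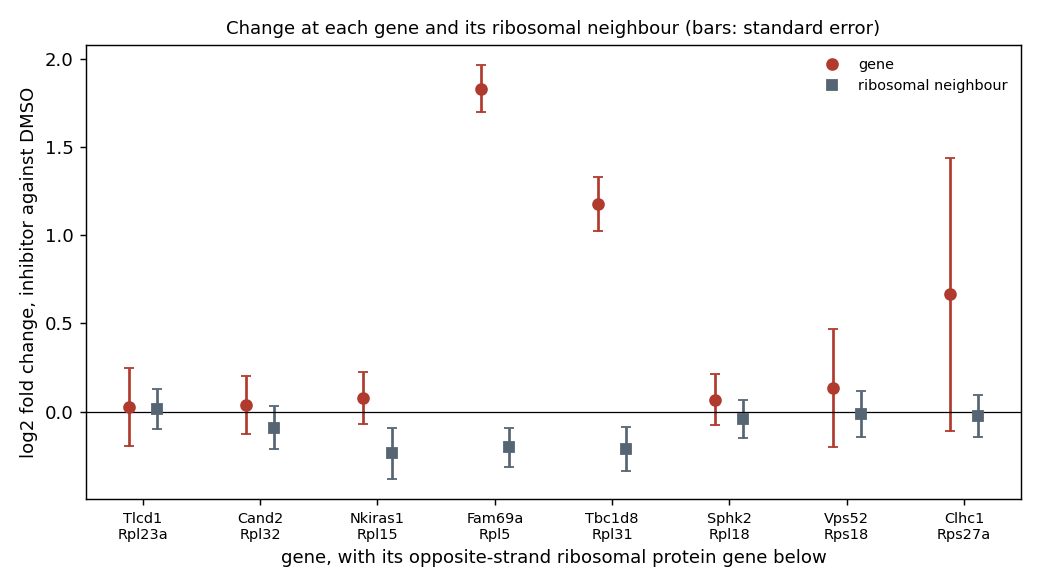
Difference of inhibitor minus DMSO on the log2 scale of normalised reads plus 1 for the 8 members (circles) and their ribosomal neighbours (squares), with standard errors from the limma fit as bars. Fam69a at 1.83 and Tbc1d8 at 1.18 lie far above 0, the neighbours lie between -0.24 and 0.01, and Clhc1 has the widest bar.

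None of the ribosomal protein genes passed the test. Of the 79 tested, limma called 0, near the 2.14% called in either direction over all genes. An unadjusted limma p below 0.05 was reached by 0 of the 79, against 1045 of all 8562 genes tested. Voom on the recovered reads and the authors' deposited table also called 0. Their median log2 difference was -0.02, with a range from -0.25 to 0.24, and 11 had groups apart in the higher and 10 in the lower direction, against 20.7% and 20.5% of all genes. The 19 ribosomal protein genes with an exon on the other strand had a median base mean of 600.7, and the 61 without one had a median of 464.

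A further 8 genes with values lie opposite a ribosomal protein gene, and limma called 1 of them higher and 1 lower, against 2.14% of all genes in either direction. They lie opposite Rps25 (Ccdc84 and Trappc4), Rpl35 (Wdr38 and Arpc5l), Rpl28 (Ube2s), Rpl12 (Lrsam1), Rack1 (Trim41) and Rps28 (Kank3). Trappc4, a subunit of the TRAPP vesicle-tethering complexes that shares 462 bases with Rps25, fell: it had 51.1 and 76.2 normalised reads in DMSO and 24.7 and 34.1 in the inhibitor group. The difference was -1.08 ± 0.26 on the log2 scale of normalised reads plus 1, with an adjusted p of 0.0022 from limma on the deposited log2 values.

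Kank3, which shares 88 bases with Rps28, rose from 30.5 and 30.3 to 63.8 and 51.1 normalised reads, a difference of 0.89 ± 0.21 with a limma adjusted p of 0.022. Without DMSO B the limma adjusted p was 0.20 for Trappc4 and 0.074 for Kank3, and without inhibitor A 0.16 and 0.39. Both stayed called without inhibitor B, at an adjusted p of 0.0084 and 0.040. Without DMSO A it was 0.00024 for Trappc4 and 0.11 for Kank3. On the deposited log2 scale, where differences of low genes are shrunken, Kank3 differed by 0.18 in the full fit and also without either DMSO library. For Trappc4 the difference on that scale was -0.23 in the full fit, -0.15 without DMSO B and -0.19 without inhibitor A. The sign held in each of these fits, in which a lone library is taken to vary like the rest. The authors' deposited table calls neither gene. The other 6 were not called, with log2 differences from -0.67 ± 0.27 for Arpc5l to 0.21 ± 0.17 for Trim41. Ccdc84, which shares Rps25 with Trappc4, had 345 and 475 normalised reads in DMSO and 410.5 and 499.7 in the inhibitor group, with overlap.

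The genes whose pattern over the 4 libraries lay closest to Fam69a and Tbc1d8 were sought among the 2041 genes at a base mean of 100 or more, by Euclidean distance of gene-centred log2 normalised reads. For Fam69a they were Sync (distance 0.522), Tbc1d8 (0.665) and Tex9 (0.826). For Tbc1d8 they were Sync (0.258), Mns1 (0.274) and Nemf (0.312). Sync had 55.6 and 63.7 normalised reads in DMSO and 155 and 145 in the inhibitor group. Sync, Tex9, Mns1 and Nemf have exon bases on the other strand of another gene, as have 1083 of the 2041 genes compared. These ran from 166 bases for Nemf to 2842 for both Tex9 and Mns1, and whether those 2 lie opposite each other was not checked. Tbc1d8 was chosen for such an exon and is no separate case. Nothing is read from the nearest genes, which were found from the members' own values.

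The labelled line was checked against markers. Of 6 epithelial markers 4 had values, with a base mean of 20.5 for Krt8 and at most 2.22 for the others, and Epcam and Krt18 had none. Of 6 fibroblast markers 5 had values, led by Col1a1 at 621. Summed fibroblast markers were 994 and 1017 normalised reads in DMSO and 1381 and 1210 in the inhibitor group, and 0 of the 5 were called, against 2.14% of all genes. Of the 5, 3 had an unadjusted p below 0.05, as had 1045 of the 8562 genes tested, and differences ran from -0.53 to 0.44, with both signs present. Among leukocyte markers, Ptprc, Cd3e and Itgam had no values, and Csf1r stood at 473. Of 5 melanocyte markers Pmel, the gene of gp100, had 30.3, and endothelial markers were at most 1.54. Their part in the results was not tested.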

How the data were processed

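Per the labels' protocols, stranded poly(A) libraries were made with the KAPA mRNA kit. The submitters' processing notes name mm10, HISAT2 2.1.0, SAMtools 1.2, StringTie 1.3.0 and DESeq2. How strand was treated in counting, and with which annotation, was not given in the sources used here. Log2 values per library fill part of the deposited table; they are headed logCPM but behave as regularised logs of normalised reads. The rest, per the file headers, holds the authors' DESeq2 base mean (a signal: mean counts over size factors), log2 fold change, Wald score and p-values. Its columns carry letters, so libraries are called A and B.

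Whole reads per library were recovered from the deposited base means (15 digits). For low genes every split of reads over the libraries was tried. For the others only splits near the deposited fold change and log2 values were tried. A single split matched the base mean for 12575 of 12578 genes, and the exact deposited fold change settled the other 3, Tlcd1 among them. In simulation 99.96% of 2471 genes came back exactly, and the recovered reads gave the deposited fold changes of 2038 genes to within 4.56e-07. Size factors were 1.11, 0.958, 0.972 and 0.999 for DMSO A and B and inhibitor A and B. Normalised reads are reads over these factors.

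Limma 3.58.1 in R 4.3.3 with a trend was fitted to the deposited log2 values of 8562 genes at a base mean of 10 or more, with Benjamini-Hochberg adjustment, two-sided, 2 residual and 182 prior degrees of freedom. Standard errors come from a separate limma fit with a trend, on log2 of normalised reads plus 1 of all 12578 genes. Exon overlaps come from GENCODE M21 (mm10), which holds 12570 of the 12578 gene IDs, 10365 in the same version. Intervals cover counting error only. The members and lists were chosen with earlier results of these data known. The genes named are the 8 members, their neighbours, every other gene opposite a ribosomal protein gene, and the 3 nearest patterns. Alternatives were other filters, voom on the recovered reads, another scaling, the deposited p-values, 100 shared bases as the minimum, and leaving out each library.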

Additional observations from a re-analysis of the deposited data

How the results depend on the processing

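Over all genes 183 were called; without a minimum 16 were (12 higher, 4 lower), and by the authors' deposited p-values 26 (16 higher, 10 lower). Voom on recovered reads scaled by size factors called 180, voom scaled by library size 129, log2 of normalised reads plus 1 called 174, and a base mean of at least 50 left 169. Leaving out each library gave 63 to 233: 144 without DMSO A, 233 without DMSO B, 63 without inhibitor A and 73 without inhibitor B. Of the other 8 genes opposite a ribosomal protein gene 2 were called, and 0 were without a minimum or by the deposited p-values. Voom scaled by library size called 1. A base mean of at least 50 left out both Trappc4, at 46.5, and Kank3, at 43.9, so it could call neither, and 0 of the 5 remaining were called. At least 100 shared bases left out Kank3, which shares 88, and 1 gene was called. For the ribosomal protein genes, each alternative run called 0. The log2 differences of Fam69a and Tbc1d8 kept their sign under the 8 alternatives tried, from 1.67 to 1.99 and from 0.97 to 1.38, both lowest without DMSO A. Those of the other 6 members changed sign under 1 to 3 of the 8. Scaling by library size moved the median of all genes from 0.01 to -0.03. No paired analysis was possible because the columns carry letters and not the labels' replicate numbers. With 2 libraries a group the spread rests largely on the pooled estimate, and Clhc1 and Vps52, with standard errors of 0.78 and 0.33, have wide counting errors.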
